A study of Mus musculus with 32 samples.

Results

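A set of 9 genes that mark germinal centre (GC) B cells, namely Gcsam, S1pr2, Rgs13, Mef2b, Efnb1, Plxnb2, Mybl1, Lmo2 and Emid1, were followed across lines of mouse B cell lymphoma, GC B cells and B cells of the spleen. They were chosen by symbol, as the probes that carry these 9 of the 35019 gene names on the array, and Gcsam is written there under its older name Gcet2. The 9 genes had 11 probes, since Mef2b and Emid1 have 2 each. The germinal centre is the structure in spleen and lymph node follicles where B cells that have met antigen divide, mutate their antibody genes and compete for help from T cells. Cells in it change how they migrate and signal, through receptors that hold them in place, regulators that damp chemokine signals and transcription factors that keep the programme on. Many human B cell lymphomas are sorted by how much of this programme they keep.

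The lymphoma samples were 9 cell lines from the spleens of ATMKO.CD3epsilonKO mice, which lack ATM, a kinase that answers DNA breaks, and CD3 epsilon, which developing T cells need (lines 1001, 1004, 1007, 1010, 1013, 1016, 1019, 1036 and 1039). The GC B cells came from ATMWT mice immunised with SRBC, and their 3 arrays are described as 1 biological and 2 technical repeats without saying which is which. Splenic B cells of ATMKO.CD3epsilonKO mice were taken untreated or after 3, 6 or 24 h with 15 ug/ml anti-IgM, which engages the B cell receptor, and those of ATMWT.CD3epsilonKO mice untreated or after 6 h. The 6 h anti-IgM samples carry a time tag of 3 h while their titles say 6 h, and the titles were followed. Lines 178119 and 28545, also ATMKO.CD3epsilonKO lymphomas, were treated for 1, 3, 6 or 24 h with 100 nM PCI-32765 (ibrutinib, which inhibits BTK, a kinase that relays B cell receptor signals) or with DMSO. The labels name no CD3 epsilon knockout for the GC donors, while the splenic B cells share it with the tumours. Nothing in the labels says that samples of splenic B cells of 1 genotype came from separate mice, so the p-values measure the spread between these samples.

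On 24 arrays the sample was labelled with Cy5 and a common pool with Cy3. The pool was made by mixing RNA of tumours, of GC B cells and of B cells from spleen, so a log2 ratio of 0 is the level in that mixture, and ratios of different genes share no scale. On 8 arrays Cy5 held the PCI-32765 cells and Cy3 the DMSO cells of the same line and time. The share of Cy5 spots above background was 50% to 60.7% on 22 of the pool arrays. It was 29.4% on the first GC array, whose log2 ratios correlated with the other 2 GC arrays at r = 0.0641 and 0.066 across probes while those 2 correlated at 0.957. That array was left out, which leaves 1 GC sample of 2 arrays. The share was 21.9% on the first of the 2 arrays of line 1039, which correlated with the second at only 0.3, against 0.946 and 0.937 for the repeats of lines 1001 and 1010. Both arrays of line 1039 were averaged, as the series' own repeats are, and values from the second alone are given beside the results that they change. Atm, by probe A_52_P400509, read -1.54 to -0.48 on 11 lymphoma arrays and -0.98 to -0.24 on 7 arrays of ATMKO splenic cells, against 0.99 and 1.09 on the GC arrays and 0.42 and 0.63 on 2 arrays of ATMWT splenic cells, so genotypes did not overlap. Cd3e read -0.64 to 1.29 in the lines and -1.91 and -1.88 on the GC arrays; where its probe lies relative to the deletion is not given in the sources used here, so it does not check that label. All 9 B cell identity genes of a marker list (among them Cd79a and Pax5) were above background in each group, and 6 GC label genes (among them Bcl6, Fas and Nuggc) had a mean log2 ratio of -0.45 to 0.32 in the lymphoma lines, 1.03 in GC B cells, -2.22 to -1.64 in anti-IgM samples and -1.34 to -1.24 in untreated samples.

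GC B cells carried more RNA of most of the 9 genes than resting splenic B cells did. Of the 9 genes 7 were higher in GC B cells than in untreated B cells and none was lower, whereas of all 21544 genes tested 7.02% were higher and 10.3% lower (limma, Benjamini-Hochberg adjusted p below 0.05 over all genes). Against anti-IgM samples 8 were higher and none lower, with 10.1% of all genes higher and 10.7% lower. The median log2 difference of the 9 was 3.68 against untreated and 4.58 against stimulated cells, while that of all genes was -0.022 and -0.005. The 9 genes were listed as GC markers with earlier results of these data known, so these counts and medians are description and no independent test. The excess over untreated cells was widest for Gcsam (26.4-fold, limma adjusted p = 0.000977), Efnb1 (14.6-fold, 0.00406), Rgs13 (14.2-fold, 0.00466) and S1pr2 (13.6-fold, 6.2e-05). It was 12.9-fold for Mybl1 (0.000218), 9.03-fold for Mef2b (0.000109) and 7.45-fold for Plxnb2 (0.0046). Under median centring without loess all genes shifted by 0.13 in this comparison and by -0.19 between lymphoma and GC cells, far less than these differences, and 54.2% of the calls between GC and untreated cells were higher, against 40.6% with loess. Of the calls between lymphoma and GC cells 23.6% were higher without loess and 35.6% in the deposited matrix, against 44.6% with loess, and between GC and anti-IgM cells 59.5% in the deposited matrix, against 48.7%. Emid1 exceeded untreated cells by 1.98 without passing (adjusted p = 0.0702). Lmo2, a LIM domain protein that bridges transcription factors, passed against neither. It read -0.43 and -0.46 on the 2 GC arrays, between -1.0 and 0.66 in the 4 anti-IgM samples and 1.17 and 1.52 in the 2 untreated samples. The groups of GC and anti-IgM samples overlapped. Its difference between GC and untreated cells was -1.79 (95% interval -3.91 to 0.34, limma adjusted p = 0.249) and between GC and anti-IgM cells 0.09 (adjusted p = 0.962). The GC group is 1 sample, so its own spread between mice is not measured and the fit lends it the spread of the other groups.

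By the mean of each list, markers of several other cell types were higher in splenic samples than in the lines and GC cells, and for most lists highest in untreated samples. The mean log2 ratio of 8 neutrophil markers was -4.63 to -2.65 in lymphoma lines, -4.76 in GC B cells, 0.34 to 1.38 in anti-IgM samples and 1.21 to 1.31 in untreated samples. For 11 measured T cell markers it was -2.14 to -0.83, -2.36, -0.19 to 0.42 and 0.68 to 0.78 in the same order, and for 9 measured macrophage markers -2.62 to -1.41, -2.65, -0.56 to 1.15 and 0.66 to 0.99. For 7 erythroid markers it was -2.53 to -1.38 in the lines, -2.55 in GC B cells, -1.55 to 0.97 after anti-IgM and 1.17 to 1.53 untreated. For 5 stromal markers the lines stood at -2.30 to -1.08, the GC sample at -2.05, anti-IgM samples at -0.45 to 0.50 and untreated samples at 0.86 to 1.17. Of the T cell markers 9 of 11 were above background in lymphoma lines and in GC B cells. Compared with GC cells 3 of the 11 were higher in the lines, Cd3g (4.73), Cd8b1 (3.80) and Cd3e (2.09), and none lower. All genes were 6.65% higher and 8.27% lower. Not every marker followed its list. Group means in the lines and in untreated cells were 0.74 and -0.93 for Cd3g, 0.97 and 0.13 for Cd8b1, 0.35 and -0.03 for Cd68 and 0.62 and 0.21 for Ly6g. Cell cycle genes as a list were lower in splenic samples, with 5 markers at -0.61 to 0.85 in the lines, 1.01 in GC B cells, -2.71 to -2.10 after anti-IgM and -1.77 to -1.68 untreated. These levels move with every difference from untreated cells given here, and their part in those differences was not tested. In such bulk samples fewer cells of a type and less RNA per cell cannot be told apart.

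**Figure D1:**
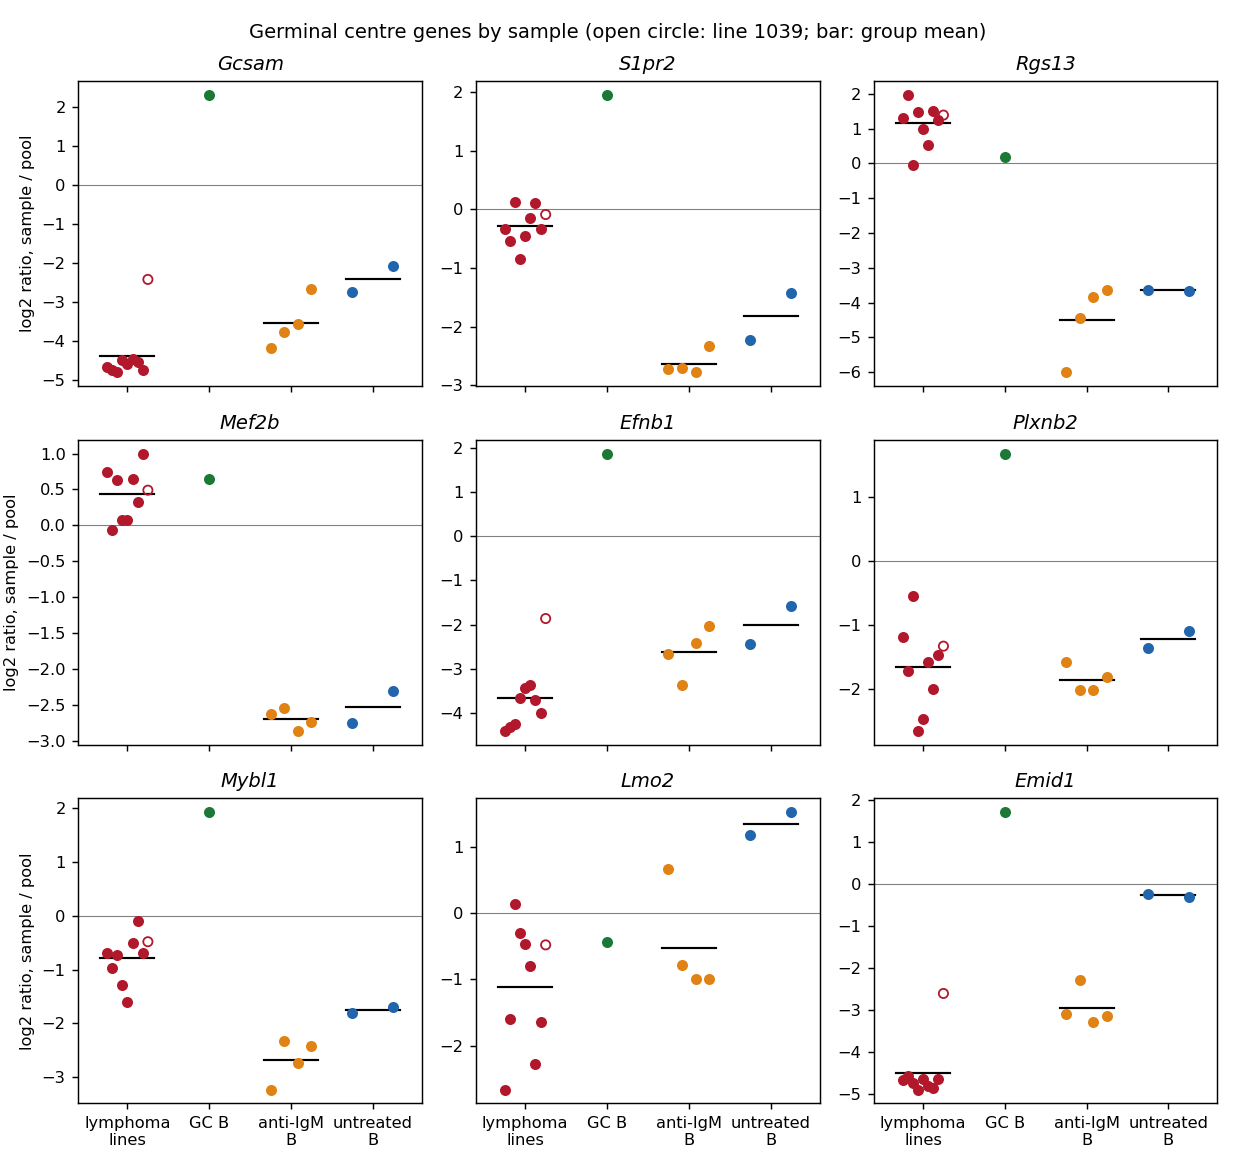
Log2 ratio to the common pool of each of the 9 genes (1 panel per gene, brightest probe) in lymphoma lines, the GC sample, anti-IgM samples and untreated samples, with 1 point per sample and a line at each group mean; the open circle is line 1039. Gcsam, Efnb1 and Emid1 are lowest in the lymphoma lines, whereas Rgs13 and Mef2b in the lines reach the GC level or lie near it.

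The lymphoma lines split the 9 genes. Compared with GC B cells, 6 were lower in the lines (Gcsam, Emid1, Efnb1, Plxnb2, Mybl1 and S1pr2), none was higher, and Rgs13, Mef2b and Lmo2 did not pass the test. Among all 21544 genes 6.65% were higher and 8.27% lower. The median of the 9 differences was -2.72, beside -0.01 over all genes. Compared with untreated B cells, 4 were higher (Rgs13, Mef2b, S1pr2 and Mybl1) and 4 lower (Emid1, Lmo2, Gcsam and Efnb1), with 14.8% of all genes higher and 21.1% lower. Compared with anti-IgM samples, the same 4 were higher and Emid1 and Efnb1 lower, with 21.2% of all genes higher and 24.8% lower. The 3 comparisons share the lymphoma samples and are not independent of each other.

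S1pr2 encodes a receptor for sphingosine-1-phosphate that keeps GC B cells inside the follicle and restrains their growth. Its probe A_52_P604613 lies at chr9:20770729-20770788 (mm9, minus strand). The lines ran from -0.84 (line 1010) through a median of -0.34 to 0.12 (line 1007), against 2.16 and 1.73 on the GC arrays. After anti-IgM for 3, 6 and 24 h ATMKO cells read -2.70, -2.78 and -2.72, ATMWT cells at 6 h -2.34, and untreated samples -2.23 (ATMKO) and -1.42 (ATMWT). The lines thus lay between the GC sample and the splenic cells with no overlap on either side. They were 4.69-fold below GC cells (log2 -2.23 ± 0.32 SE, limma adjusted p = 0.000493), 2.9-fold above untreated cells (1.54 ± 0.24, adjusted p = 0.000171) and 5.11-fold above anti-IgM samples (2.35 ± 0.18, adjusted p = 2.1e-07). The difference from untreated cells was 1.08 on slide 2 (adjusted p = 0.0777), 1.62 on slide 3 and 1.87 on slide 4.

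Plxnb2 encodes plexin-B2, a receptor for class 4 semaphorins, and its probe A_55_P1967266 lies at chr15:88985981-88986040 (mm9, minus strand). The lines had ratios of -2.65 (line 1010), -1.57 (median) and -0.55 (line 1007), against 1.66 and 1.69 on the GC arrays. The lines spread far more widely than technical repeats do (SD 0.65 against 0.077), yet all lay below the GC sample, by 10-fold on average (log2 -3.33 ± 0.53 SE, limma adjusted p = 0.000921). On slide 4 alone, which holds both GC arrays and 3 of the lines, the difference of -3.40 missed the threshold (adjusted p = 0.0607). Anti-IgM samples of ATMKO cells at 3, 6 and 24 h read -2.02, -2.02 and -1.58, that of ATMWT cells -1.81, and untreated samples -1.36 (ATMKO) and -1.09 (ATMWT), so the lines overlapped both. Neither difference passed, at 0.20 (95% interval -0.45 to 0.84, adjusted p = 0.618) and -0.43 (-1.27 to 0.41, adjusted p = 0.425).

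Efnb1 encodes ephrin-B1, a membrane ligand of Eph receptors on neighbouring cells, T cells among them. Probe A_51_P388478 lies at chrX:96343505-96343564 (mm9, plus strand). The lines had a lowest, median and highest ratio of -4.40, -3.70 and -1.86, against 1.88 and 1.86 on the GC arrays. The highest is line 1039, with -0.26 on its first array, where neither channel was above background, and -3.47 on its second. No line reached the GC level, and the difference was -5.53 ± 0.69 (SE), or 46.3-fold lower in the lines (limma adjusted p = 0.00017), and 52.4-fold without the first array of line 1039. After anti-IgM for 3, 6 and 24 h ATMKO cells read -3.36, -2.41 and -2.67, ATMWT cells at 6 h -2.03, and untreated samples -2.43 (ATMKO) and -1.58 (ATMWT). With the second array of line 1039 the lines lay below both untreated samples, by -1.84 (adjusted p = 0.000668), and with both arrays by -1.66 (adjusted p = 0.0204), which did not pass without the ATMWT untreated sample (-1.24, adjusted p = 0.243) or with slide as a block (-1.81, adjusted p = 0.0669). The lines met the anti-IgM range at its lowest sample, and the difference of -1.05 (adjusted p = 0.0419) was lost in 9 fits that each left out 1 sample, at adjusted p up to 0.14, and with slide as a block (-1.08, adjusted p = 0.149). Without the first array of line 1039 it was -1.22 (adjusted p = 0.00145).

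Gcsam encodes an adaptor protein that in human GC B cells (as HGAL) slows migration and strengthens B cell receptor signals. Its probe A_55_P2062048 lies at chr16:45622921-45622980 on the plus strand of mm9. The lowest, median and highest log2 ratios of the 9 lines were -4.79, -4.58 and -2.41, against 2.30 and 2.34 on the GC arrays. The highest is again line 1039, whose first array read -0.06 with neither channel above background and whose second read -4.77. With that second array alone the lines ranged from -4.79 to -4.46 and averaged -4.64 ± 0.13 (SD, n = 9), a spread no wider than that between technical repeats (SD 0.197, 5 samples on 11 arrays). Without that first array, Cy5 signals in the lines were log2 6.48 (line 1039) to 7.51 (line 1019). These lie near the 6.17 of the first array, which was not above background. How far such a floor sets the small spread and the fold sizes was not tested. The lines and the GC sample did not overlap, and the difference was -6.70 ± 0.68 (SE), or 104-fold lower in the lines (limma adjusted p = 3.55e-05). Without the first array of line 1039 it was -6.96 ± 0.36, or 124-fold (adjusted p = 3.34e-08). ATMKO cells read -3.76, -3.55 and -4.17 after anti-IgM for 3, 6 and 24 h and ATMWT cells -2.66 after 6 h, and untreated samples read -2.73 (ATMKO) and -2.07 (ATMWT). The lines stood below untreated cells by a log2 difference of -1.97 (adjusted p = 0.00683), and of -2.24 without the first array of line 1039 (adjusted p = 1.56e-05). The call did not pass without the ATMWT untreated sample (-1.64, adjusted p = 0.114) or with slide as a block (-2.20, adjusted p = 0.112). Against anti-IgM samples the difference was -0.84 (adjusted p = 0.0913), and -1.10 without the first array of line 1039 (adjusted p = 0.000524).

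Rgs13 was the gene of the list by which the lines stood furthest above the splenic samples. It encodes a regulator of G protein signalling that dampens chemokine receptors in B cells, and its probe A_55_P2078370 lies at chr1:145985824-145985883 (mm9, minus strand). The lines read -0.05 (line 1007), 1.30 (median) and 1.97 (line 1004), against 0.14 and 0.23 on the GC arrays. Anti-IgM for 3, 6 and 24 h gave -4.44, -3.85 and -6.00 for ATMKO, and 6 h gave -3.65 for ATMWT, and untreated samples -3.63 (ATMKO) and -3.66 (ATMWT). All lines but 1007 stood above the GC sample, and all 9 stood above every splenic sample by a wide gap. The lines exceeded untreated cells 27.7-fold (log2 4.79 ± 0.52 SE, limma adjusted p = 8.01e-06) and anti-IgM samples 49.6-fold (5.63 ± 0.40, adjusted p = 8.78e-08). Against GC cells the difference of 0.96 did not pass (95% interval -0.53 to 2.46, adjusted p = 0.404), and on slide 4 alone it was 1.47 (adjusted p = 0.043).

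Mef2b encodes a transcription factor that in human GC B cells activates BCL6 and is mutated in some human lymphomas. Its 2 probes, A_55_P1959784 at chr8:72691191-72691250 and A_55_P1963232 at chr8:72689021-72689080 (mm9, plus strand), are shown because they cover different parts of the transcript and gave 1 pattern against the splenic samples.
A_55_P1959784: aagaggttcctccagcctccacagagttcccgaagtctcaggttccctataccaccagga
A_55_P1963232: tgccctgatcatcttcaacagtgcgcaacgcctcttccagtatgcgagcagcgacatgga
By the first probe the lines read -0.07 (line 1004), 0.49 (median) and 1.00 (line 1036), against 0.65 and 0.64 on the GC arrays. Anti-IgM samples of ATMKO cells at 3, 6 and 24 h read -2.54, -2.86 and -2.62, that of ATMWT cells -2.74, and untreated samples -2.75 (ATMKO) and -2.31 (ATMWT). The lines surrounded the GC sample and did not meet the splenic cells. They exceeded untreated cells 7.81-fold (log2 2.97 ± 0.24 SE, limma adjusted p = 8.58e-07) and anti-IgM samples 8.72-fold (3.12 ± 0.18, adjusted p = 2.2e-08). Against GC cells the difference was -0.21 (95% interval -0.89 to 0.47, adjusted p = 0.729). The second probe gave 3.88 against untreated cells and 0.36 against GC cells, so the small difference from GC cells changes sign with the probe.

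Mybl1, the transcription factor A-Myb of dividing GC B cells, had the same order of groups as S1pr2. Its probe A_55_P1966369 lies at chr1:9659134-9659193 (mm9, minus strand). The lines read -1.61 (line 1013), -0.69 (median) and -0.09 (line 1019), against 1.88 and 1.99 on the GC arrays. ATMKO cells given anti-IgM for 3, 6 and 24 h read -2.32, -2.73 and -3.23, ATMWT cells at 6 h -2.42, and untreated samples -1.81 (ATMKO) and -1.69 (ATMWT). Only 3 of the 5 anti-IgM arrays had a Mybl1 signal above background in Cy5. The lines were 6.57-fold below GC cells (log2 -2.72 ± 0.42 SE, limma adjusted p = 0.000721) and 3.71-fold above anti-IgM samples (1.89 ± 0.24, adjusted p = 1.7e-05). They were 1.96-fold above untreated cells (0.97 ± 0.31, adjusted p = 0.0243), a difference that did not pass without the ATMWT untreated sample (adjusted p = 0.113), without the ATMKO one (0.164) or with slide as a block (0.85, adjusted p = 0.0542). Line 1013 at -1.61 lay close to the ATMWT untreated sample at -1.69.

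Lmo2, whose product joins LIM-binding and basic helix-loop-helix factors and serves as a GC marker in human pathology, varied most among the lines. Its probe A_55_P2083988 lies at chr2:103821857-103821916 (mm9, plus strand). The lines read -2.66 (line 1001), -0.80 (median) and 0.14 (line 1007), an SD of 0.96 beside 0.129 between technical repeats. Lines 1001 and 1019 (-2.28) were lowest, and lines 1004 (-1.60) and 1036 (-1.64) followed. All 9 lines lay below both untreated samples, by a log2 difference of -2.47 ± 0.63 (SE), or 5.52-fold (limma adjusted p = 0.00697), which did not pass without the ATMWT untreated sample (-2.30, adjusted p = 0.0833). The differences from GC cells (-0.68, 95% interval -2.51 to 1.15, adjusted p = 0.666) and from anti-IgM samples (-0.59, -1.63 to 0.45, adjusted p = 0.341) did not pass.

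Emid1 encodes an EMI domain protein of the extracellular matrix. It is measured by probe A_55_P1954277 (chr11:5006273-5006332) and the dimmer A_55_P1954276 (chr11:5010694-5010753), both on the minus strand of mm9. The lines read -4.90, -4.67 and -2.61 as lowest, median and highest, against 1.75 and 1.66 on the GC arrays. With the second array of line 1039 alone the lines lay between -4.90 and -4.57, apart from every other group. The difference from GC cells was -6.20 ± 0.61 (SE), or 73.7-fold lower in the lines (limma adjusted p = 2.91e-05), and 87.4-fold without the first array of line 1039. Untreated samples read -0.24 (ATMKO) and -0.31 (ATMWT), well above both the anti-IgM samples (-3.30 to -2.30) and the lines. The lines stood 18.7-fold below untreated cells (log2 difference -4.22, adjusted p = 7.39e-06) and differed from anti-IgM samples by -1.54 (adjusted p = 0.00222), which did not pass with slide as a block (-1.57, adjusted p = 0.104). Without the first array of line 1039 these were 22.1-fold and -1.78. GC cells exceeded untreated cells by 1.98, which missed the threshold with both arrays of line 1039 (adjusted p = 0.0702) and passed without its first array (adjusted p = 0.000382). The dimmer probe gave smaller differences of the same sign, at -3.40 between lymphoma and GC cells and -1.84 between lymphoma and untreated cells. Without the first array of line 1039, its Cy5 signals in the lines were log2 6.43 to 7.10, against 8.66 to 9.26 for the brighter probe. On the second array of line 1001 the dimmer probe was not above background in Cy5. The part of such a floor in the smaller differences was not tested. The sequence of the dimmer probe is shown because its size of effect differs from that of the other probe.
A_55_P1954276: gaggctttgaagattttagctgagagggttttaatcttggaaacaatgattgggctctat

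**Figure D2:**
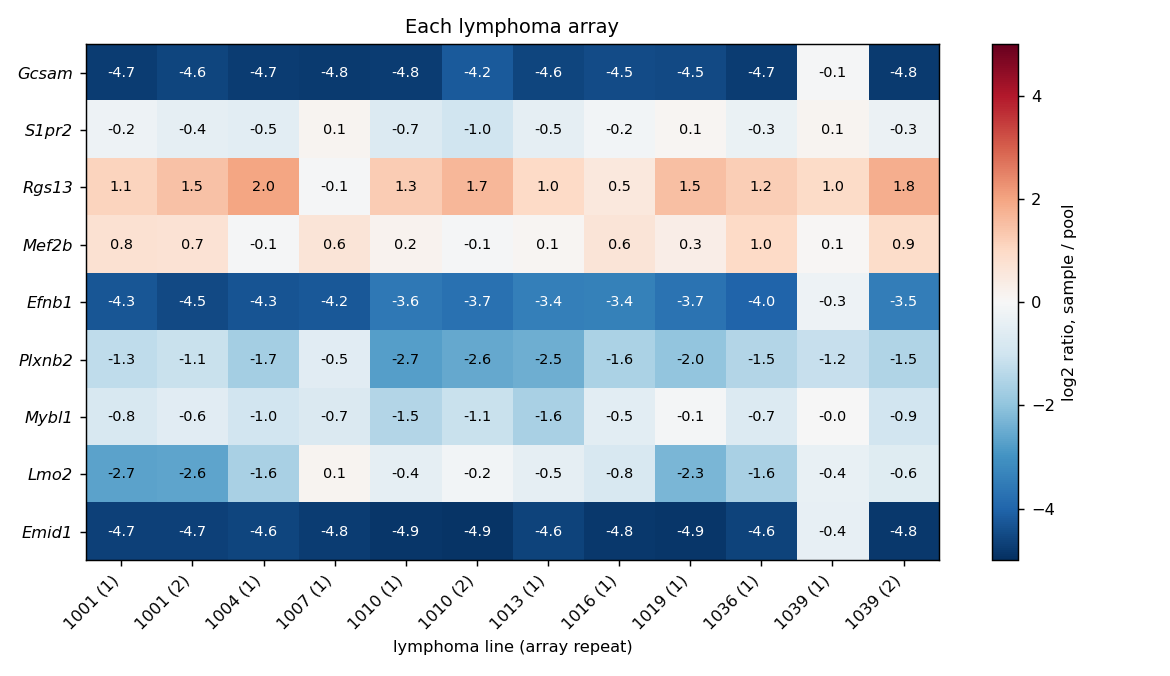
Log2 ratio to the common pool of the 9 genes (rows) on each of the 12 lymphoma arrays (columns, line and array repeat), coloured from blue (below the pool) to red (above it) with the value in each cell. Gcsam and Emid1 are nearly flat except on the first array of line 1039, whereas Lmo2 and Plxnb2 differ from line to line.

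**Figure D3:**
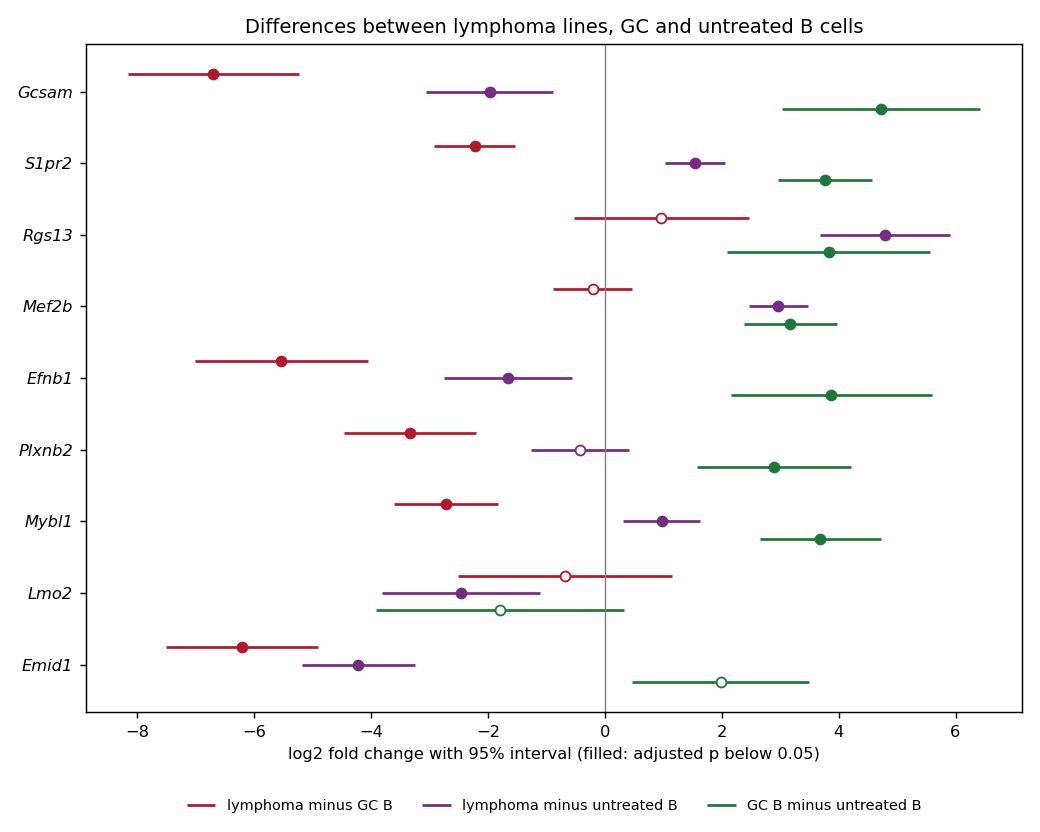
Log2 differences between lymphoma lines and GC B cells, lymphoma lines and untreated B cells, and GC and untreated B cells for each gene, with 95% intervals; filled points passed at an adjusted p below 0.05. Gcsam, Efnb1 and Emid1 lie left of 0 for lymphoma against GC and against untreated cells, while Rgs13 and Mef2b lie right of 0 against untreated cells and across 0 against GC cells.

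Some of the profiles ran alike, which is given as a description over 16 samples that share the pool and differ by group. Gcsam and Efnb1 correlated at Pearson's r = 0.97 (0.93 over the 15 samples without GC), Gcsam and Emid1 at 0.89 and Efnb1 and Emid1 at 0.87. S1pr2 correlated with Mybl1 at 0.95 and with Mef2b at 0.89, and Rgs13 with Mef2b at 0.93. Gcsam read -0.18 with Rgs13, -0.11 with Mef2b, 0.30 with S1pr2 and 0.45 with Mybl1. Over the 15 samples without GC these were -0.53, -0.62, -0.46 and -0.34, so the positive values rest on the GC sample. Across the 9 lines alone, with the second array of line 1039, r was 0.72 for S1pr2 and Mybl1, 0.56 for Gcsam and Efnb1, 0.43 for S1pr2 and Mef2b, -0.24 for Rgs13 and Mef2b and -0.53 for Gcsam and Emid1. With both its arrays averaged, as in the values over 16 samples, Gcsam and Emid1 read 0.96 and Gcsam and Efnb1 0.92 across the lines, so these values depend on its first array. Among 13413 other genes compared, the profiles most like Gcsam were those of Parm1 (r = 0.985) and Rsph1 (0.974), like Efnb1 those of Arhgap8 and Rsph1 (0.963 each) and like Emid1 those of Mprip (0.968) and Tmem121 (0.964). S1pr2 was most like Chaf1b (0.969) and Helq (0.968), Mybl1 most like Msh3 (0.962), and Mef2b most like Cks1brt (0.99) and Prim2 (0.989). Rgs13 was most like Pdhb (0.965) and Whrn (0.957), Plxnb2 most like Fbxw7 (0.949) and Txndc11 (0.908), and Lmo2 least closely matched, by Dusp6 (0.889) and Lsmem1 (0.837). All these matches used the 16 samples, with GC and with both arrays of line 1039 averaged. They were not recomputed without GC or without that first array.

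RefSeq promoters (GRCm38.p6) were on hand for 7 of the 9 genes, as 9 start sites, and Mybl1 and Lmo2 are named only. The 250 bases before each start were searched on both strands for 5 motifs that do not overlap each other in these windows. Of the 9 promoters, 1 held the octamer ATGCAAAT (Mef2b) and 1 the CRE palindrome TGACGTCA (S1pr2). The pattern of CTA and TAG parted by any 4 bases was in 1 (Emid1, as CTACAACTAG) and the PU.1 core GAGGAA in 2 (Gcsam and Emid1). None held TTCCNNGAA, the core shared by STAT factors and BCL6. Of all 32851 promoters of the table, 1.6%, 1.55%, 3.2%, 23.3% and 4.06% held these motifs in the same order. The Mef2b octamer spans bases -85 to -78 from the start, the S1pr2 palindrome -181 to -174 and the Gcsam cores, which read TTCCTC on this strand, -231 to -226 and -86 to -81. These windows are shown, 5' to 3' on the gene's strand with the motif in capitals, because Mef2b and S1pr2 were above the splenic level in the lines and Gcsam was not; a match is no evidence of binding.
Mef2b, chr8:70152511-70152760, plus strand: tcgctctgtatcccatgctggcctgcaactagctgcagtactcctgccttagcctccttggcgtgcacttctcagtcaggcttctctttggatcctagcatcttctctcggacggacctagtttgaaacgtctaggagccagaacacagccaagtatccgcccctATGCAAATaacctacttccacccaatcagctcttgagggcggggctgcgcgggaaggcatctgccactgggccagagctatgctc
S1pr2, chr9:20976794-20977043, minus strand: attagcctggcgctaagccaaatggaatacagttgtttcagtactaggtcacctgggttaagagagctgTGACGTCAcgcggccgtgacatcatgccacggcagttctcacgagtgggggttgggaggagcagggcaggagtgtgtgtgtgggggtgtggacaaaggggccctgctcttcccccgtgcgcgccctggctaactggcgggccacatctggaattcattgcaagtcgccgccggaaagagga
Gcsam, chr16:45610190-45610439, plus strand: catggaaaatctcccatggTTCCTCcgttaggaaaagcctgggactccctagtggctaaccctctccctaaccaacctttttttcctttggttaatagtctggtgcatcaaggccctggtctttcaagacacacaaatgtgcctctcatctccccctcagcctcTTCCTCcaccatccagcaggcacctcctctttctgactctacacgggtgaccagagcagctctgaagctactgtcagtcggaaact

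Other genes of the GC programme also showed losses and no gains in the lines against GC cells. Of 24 such genes, 9 were lower and none higher in the lines than in GC cells (median -1.07), beside 8.27% and 6.65% of all genes. The largest differences were in Bach2, a transcription factor that holds B cells back from plasma cell fate (-5.63), the surrogate light chain relative Vpreb3 (-5.62), the transcription factor Irf8 (-3.14), Basp1 (-2.89) and the DNA glycosylase Neil1 (-2.08). Against untreated cells 6 of the 24 were higher and 9 lower, beside 14.8% and 21.1% of all genes, with Fas, the death receptor of GC B cells, at 2.90 and Ezh2, a histone methyltransferase, at 2.68 on the higher side. GC cells exceeded untreated cells in 6 of the 24 and were lower in 1, beside 7.02% and 10.3% of all genes, with Nuggc (3.45) and Fas (3.24) among the higher ones. Of 7 genes of plasma cell fate, 2 were higher in the lines than in GC cells, Irf4 (2.85) and Xbp1 (2.07), and none was lower, beside 6.65% and 8.27% of all genes. Of 10 genes of resting follicular B cells, 9 were lower and none higher in the lines than in untreated cells, beside 21.1% and 14.8% of all genes.

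Of 23 measured relatives of the 9 genes, 2 were higher and 3 lower in the lines than in GC cells, shares close to the 6.65% and 8.27% of all genes. Rgs1 (-5.49) and Rgs2 (-3.20), regulators of G protein signalling like Rgs13, and Mybl2 (-1.40), the relative of Mybl1, were lower. Plxnd1 (4.96), a plexin like Plxnb2, and Rgs10 (1.23) were higher. Among the receptors for sphingosine-1-phosphate, S1pr1, which draws B cells out to blood, was lower in the lines than in untreated cells (-4.37), as was S1pr5 (-2.66), where S1pr2 was higher. GC cells showed the same signs for S1pr1 (-4.48) and S1pr5 (-2.55). Of 22 measured binding partners and pathway enzymes, 1 was higher and 2 lower in the lines than in GC cells, again near the shares of all genes. They were Tcf4 (2.24), Tcf3 (-1.15), both E proteins of the kind that Lmo2 complexes bind, and Cabin1 (-1.14), a repressor of MEF2 factors. Against untreated cells 1 of the 22 was higher and 12 were lower, beside 14.8% and 21.1% of all genes. Sphk1, a kinase that makes sphingosine-1-phosphate, was lower in the lines than in untreated cells (-3.85).

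Over all times of anti-IgM no gene passed the threshold. None of the 9 genes and none of all 22317 tested (0% higher, 0% lower) passed in the fit of 4 anti-IgM and 2 untreated samples with genotype as a term, where 1688 genes had an unadjusted p below 0.05 (limma, 3 residual degrees of freedom). The median of the 9 differences was -0.68 and that of all genes -0.04. In ATMKO cells Emid1 read -2.30, -3.30 and -3.10 after 3, 6 and 24 h of anti-IgM, against -0.24 untreated, and in ATMWT cells -3.14 after 6 h, against -0.31 untreated. All 4 stimulated samples lay below both untreated samples, each by at least 2.05 against the untreated sample of its genotype, and the fitted difference was -2.73 ± 0.33 (SE, unadjusted p = 0.000327, limma adjusted p = 0.476). The second Emid1 probe gave -1.64. In ATMKO cells Lmo2 read -0.78, -0.99 and 0.66 after 3, 6 and 24 h, against 1.17 untreated, and in ATMWT cells -1.0 after 6 h, against 1.52 untreated. The stimulated samples again lay below the untreated ones, by -1.93 ± 0.56 (adjusted p = 0.592), with the 24 h sample nearest to them. S1pr2, Mybl1 and Plxnb2 were also lower without overlap between the groups, by -0.67, -0.86 and -0.60. Gcsam differed by -0.89, Rgs13 by -0.68, Efnb1 by -0.41 and Mef2b by -0.12. The share of all genes that separate the 4 and 2 samples in this way was not counted, so these separations are description only.

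At 6 h alone, with 1 sample of each genotype stimulated and untreated, the fit had 1 residual degree of freedom. There 6333 of all genes passed, counted over both directions, where the fit over all times tested 22317 (limma). Of the 9 members 6 passed, all lower after anti-IgM. They were Emid1 (-2.95, adjusted p = 0.00224), Lmo2 (-2.34, 0.00245), Mybl1 (-0.82, 0.00987), S1pr2 (-0.74, 0.0191), Gcsam (-0.70, 0.0159) and Plxnb2 (-0.69, 0.0131). Within slides, Emid1 was lower after anti-IgM by -2.83 on slide 2 (ATMWT, 6 h), by -1.94 and -3.02 on slide 3 (ATMKO, 3 and 6 h) and by -3.03 on slide 4 (ATMKO, 6 h). The same contrasts for Lmo2 were -2.51, -1.83, -2.17 and -2.10. With slide as a block, which was added after the data were seen, Lmo2 (-2.20, adjusted p = 0.0265) and Emid1 (-2.65, adjusted p = 0.0331) passed and 195 genes in all did. Between genotypes none of the 9 and none of all genes passed (0% higher, 0% lower, 128 genes at an unadjusted p below 0.05). Gcsam was lower in ATMKO than in ATMWT cells by -0.97 (unadjusted p = 0.0113, limma adjusted p = 1), with -0.66 untreated and -0.90 at 6 h.

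**Figure D4:**
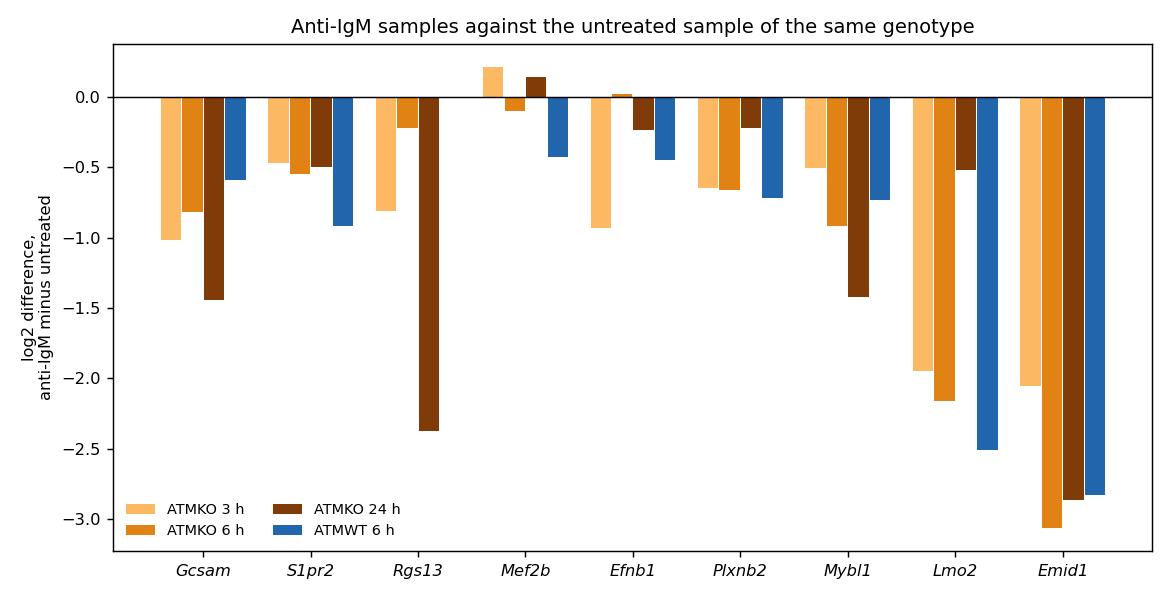
Log2 difference of each anti-IgM sample (ATMKO at 3, 6 and 24 h, ATMWT at 6 h) from the untreated sample of its genotype, with 1 bar per sample for each of the 9 genes and no error bars. Emid1 lies below -2 in all 4 samples, and Lmo2 is at -1.95 to -2.51 at 3 and 6 h and at -0.52 at 24 h.

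Of the 7 genes tested, S1pr2 and Lmo2 had the largest log2 ratios of PCI-32765 over DMSO in both lines. Every drug array carried the drug in Cy5, so a dye effect and the drug cannot be told apart at a single time. Log2 ratios of PCI-32765 over DMSO for S1pr2 at 1, 3, 6 and 24 h were 0.12, 0.14, 0.99 and 1.76 in line 28545 and -0.15, 0.17, 0.79 and 1.72 in line 178119. The lines stayed within 0.27 of each other at every time and climbed from 6 h on. At 6 h the mean was 0.89 ± 0.10 (SE, limma adjusted p = 0.000429) and at 24 h 1.74 ± 0.10 (adjusted p = 2e-05). Over the 4 times it averaged 0.69 (adjusted p = 2.49e-05). All p-values on the drug arrays take the 8 arrays as independent, although they come from 2 lines followed over 4 times. No spread beyond these 2 lines is measured, and the test between the lines counts times as repeats. Lmo2 read -0.34, -1.13, -0.84 and 1.09 in line 28545 and -0.15, -0.76, -0.83 and 1.61 in line 178119. It was lower with the drug at 3 h (-0.95 ± 0.14, adjusted p = 0.00404) and at 6 h (-0.84 ± 0.14, adjusted p = 0.00247) and higher at 24 h (1.35 ± 0.14, adjusted p = 0.000303). The 2 decreases did not pass without loess or in the deposited matrix. The mean of Lmo2 over the times was -0.17 (adjusted p = 0.082, and 0.0461 with line as a term).

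The other genes moved less or were too dim. Mybl1 read -0.36, 0.04, 0.56 and 0.20 in line 28545 and -0.70, -0.48, 1.15 and 1.19 in line 178119, which gave 0.85 ± 0.23 at 6 h (SE, limma adjusted p = 0.0227) and 0.69 at 24 h (adjusted p = 0.0522). The call at 6 h was lost without the array of line 178119 at that time (0.56, adjusted p = 0.324), and at 24 h the value without the array of line 28545 was 1.19 and passed (adjusted p = 0.0127). Plxnb2 read 0.20, 0.14, 0.17 and 0.37 in line 28545 and 0.06, 0.08, 0.02 and 0.19 in line 178119. All 8 values were above 0, with a mean of 0.15 ± 0.05 (adjusted p = 0.0347) that was lost in 6 of the 8 fits that left out 1 array. Mef2b, by its brighter probe, read 0.49, 0.19, 0.02 and -0.28 in line 28545 and 0.20, 0.34, 0.20 and 0.31 in line 178119, with a mean of 0.18 (adjusted p = 0.0711). Its second probe read 0.33, 0.01, -0.12 and -0.34 in line 28545 and -0.29, -0.11, 0.27 and 0.25 in line 178119. The probes thus differ in sign at 1 and 3 h in line 178119 and at 6 h in line 28545. Rgs13 stayed between -0.16 and 0.22 in line 28545 and between -0.27 and 0.14 in line 178119, where its 1 h spot was an outlier and is missing, and its mean was -0.05 (95% interval -0.18 to 0.09, adjusted p = 0.602). Efnb1 was above background on all 4 arrays of line 28545, at 0.12, 0.12, -0.23 and -0.19, and on none of line 178119, and its mean of -0.03 did not pass (adjusted p = 0.755). Gcsam and both Emid1 probes were well above background on none of the 4 arrays of line 178119 and on only 1 of the 4 of line 28545, the 24 h array, and were not tested. That array had 85.5% of its Cy5 spots above background, against 45.6% to 53% on the other 7 drug arrays.

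Counted over the 7 genes tested, none passed at 1 h, 1 was lower at 3 h, 2 were higher and 1 lower at 6 h, and 2 were higher at 24 h. Of all 19230 genes, 0.26% were higher and 0.276% lower at 1 h, 3.49% and 4.13% at 3 h, 12.7% and 12.4% at 6 h and 11.8% and 12.9% at 24 h. Over the mean of the 4 times 2 of the 7 were higher and none lower, with 17.4% of all genes higher and 16% lower. The 7 genes had a median of 0.28 at 24 h, beside -0.01 over all genes. No difference between the lines passed for any of the 7, nor for any of 19160 genes tested (0% higher, 0% lower, 683 at an unadjusted p below 0.05), where the largest member difference was -0.27 for Lmo2 in line 28545 minus line 178119 (unadjusted p = 0.0392, limma adjusted p = 1). Of 22 other GC programme genes tested, 15 were higher and 2 lower with PCI-32765 at 24 h (median 0.62). They included Vpreb3 (2.12), Nuggc (1.40), Irf8 (1.25) and Neil1 (1.11). Of 20 relatives of the 9 genes, 10 were higher and none lower at 24 h, led by Lmo1 (1.63) and S1pr3 (1.01). Of the 6 plasma cell fate genes tested 2 were higher (Jchain 1.08, Xbp1 0.82) and 2 lower (Sdc1 -1.17, Irf4 -0.78). Of 18 partners and pathway enzymes 10 were higher and none lower, and of 9 follicular genes 3 were higher and none lower. Of 4 cell cycle markers tested, all 4 were lower at 24 h (median -0.83), a change whose part in the others was not tested.

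The sizes on the drug arrays depend on the loess step, since all 8 carry the drug in Cy5 and no dye was swapped, so a dye effect and the drug cannot be told apart at a single time. Centred on the median without loess, all genes tested shifted by 0.62 at 1 h, 0.63 at 3 h, 0.26 at 6 h and 0.32 at 24 h, and 99.9%, 99.4%, 92.9% and 97.5% of the calls were higher, against 48.5%, 45.8%, 50.5% and 47.8% with loess. Relative to those shifts S1pr2 stood at 0.10, 0.30, 0.95 and 1.84 and Lmo2 at -0.10, -0.83, -0.80 and 1.46, close to the values with loess. Without that correction for the shift, Lmo2 read 0.52, -0.20, -0.55 and 1.77 and its decreases at 3 and 6 h did not pass. In the deposited matrix 73.1%, 80.4%, 67.5% and 70.2% of the calls at the 4 times were higher, and Lmo2 at 3 h (-0.76, limma adjusted p = 0.0843), Lmo2 at 6 h (-0.72, adjusted p = 0.0701) and Mybl1 at 6 h (1.14, adjusted p = 0.0625) did not pass.

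**Figure D5:**
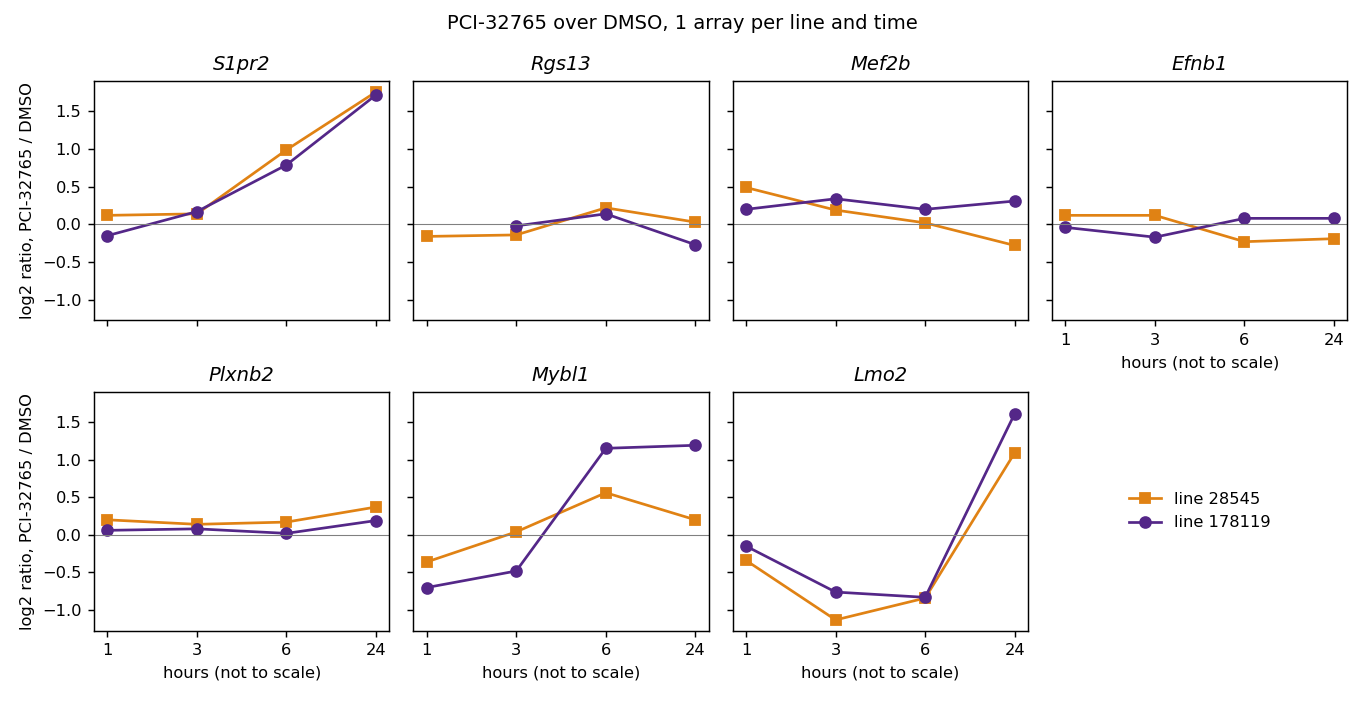
Log2 ratio of PCI-32765 over DMSO at 1, 3, 6 and 24 h (axis not to scale) for the 7 genes tested, with lines 28545 and 178119 marked apart and 1 point per array. S1pr2 rises to above 1.7 in both lines at 24 h, Lmo2 is below 0 until 6 h and above 1 at 24 h, and Rgs13 and Efnb1 stay within 0.3 of 0.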

How the data were processed

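Total RNA was measured on 32 Agilent 2-colour arrays with 62976 spots each. Per the file headers, the authors ran Feature Extraction 10.1.1.1 on the scans, and the scanner files hold deposited intensity values (mean signal and background median of each dye) and a deposited log10 ratio. The submitters' processing notes name Feature Extraction 9.1 and limma. The authors' deposited series matrix holds log10 ratios, used as an alternative. Probe coordinates are on mm9, per the file headers. Signals were background-corrected by normexp (offset 50) and loess-normalised within arrays in limma 3.58.1 (R 4.3.3), with control and outlier spots left out, and given as log2 ratios. A probe was kept in a fit where either channel was above background on a share of 0.5 or more of its arrays, and the brightest probe stood for a gene. Technical repeats were averaged, which gave 16 pool samples. The pool fit had 12 residual degrees of freedom, the splenic fit 3 and the drug fit 4. Moderated statistics were adjusted by Benjamini-Hochberg over all genes, and the fits were tested on simulated data. Named genes were all 9 members, up to 5 of each list with the largest change that passed (not all are printed) and the 2 genes most like each member; a few genes that this rule names are not reported here. The members and lists were chosen with earlier results of these data known. Leaving out the first array of line 1039 and slide as a block for the splenic fit were chosen after seeing the data; the other alternatives covered background correction, normalisation, the filter, probes, slides, line as a term, and leaving out samples. The first GC array was left out as failed, and precision is limited by the number of arrays.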

Additional observations from a re-analysis of the deposited data

Results flagged for a closer look

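Of 35 sets of 4 to 9 values examined, 5 held a value farther from its neighbours than the 95% limit of Dixon's test, a limit that chance alone passes in a few sets of this number. In the lymphoma lines, line 1039 stood apart for Gcsam at -2.41 (next line -4.46), for Efnb1 at -1.86 (next line -3.36) and for Emid1 at -2.61 (next line -4.57), each on the log2 ratio scale. All 3 values average a first array on which neither channel was above background for these probes, with Gcsam at -0.06, Efnb1 at -0.26 and Emid1 at -0.40, and a second array at -4.77, -3.47 and -4.82 that lay among the other lines. Among the 4 anti-IgM samples, Lmo2 in ATMKO cells at 24 h read 0.66, where the next sample read -0.78. The 24 h sample is 1 array, so time and sample cannot be told apart. For Emid1 in line 178119, PCI-32765 over DMSO at 24 h was 0.18 with the nearest value at 0.00, on arrays where that probe was not well above background.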

How the results depend on the processing

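For single genes 1969 values were recomputed under the alternatives, of which 1875 kept their call, 51 lost and 38 gained one, and 5 that had not passed changed sign and passed. All 5 came from median centring without loess on the drug arrays, with Rgs13 at 0.71 and Lmo2 at 0.39 in the mean of the times, S1pr2 at 0.72 and Lmo2 at 0.52 at 1 h, and Rgs13 at 0.98 at 3 h, where all genes shifted by 0.45, 0.62 and 0.63. The count of members called under that setting was 6 in the mean, 4 at 1 h, 4 at 3 h and 5 at 24 h, with 14419, 11811, 11827 and 4811 of all genes called. With the deposited matrix 0 members passed at 3 h and 1 at 6 h, with 794 and 2262 of all genes; the cause was not tested. For lymphoma against untreated cells 5 passed with slide as a block, and 5, 3 and 5 on slides 2, 3 and 4 alone, which hold fewer samples, with 8160, 3751, 486 and 3665 of all genes; leaving out 1 sample gave 4 to 8, with 4 without the ATMWT untreated sample. For anti-IgM against untreated cells 6 passed at 6 h alone and 2 with slide as a block, with 6333 and 195 of all genes. Leaving out 1 array gave 1 to 3 members in the drug mean and 0 to 1 at 3 h, where 0 came without line 28545 at 3 h (Lmo2 -0.76, adjusted p = 0.124). The counts of all genes called moved with the sample left out from 2810 to 4160 for lymphoma against GC cells, 4589 to 8622 for lymphoma against untreated cells and 2317 to 4783 for GC against untreated cells. The 6 losses against GC cells kept their calls whichever other sample was left out. The GC sample itself could not be left out, only 1 of its arrays at a time, so dependence on that sample is not measured. No paired analysis was possible because repeat numbers mark technical repeats of 1 sample and do not link samples of different groups; PCI-32765 and DMSO of 1 line and time share an array, and with line as a term 3 members passed in the drug mean, Lmo2 being added, against 2 without it. Signals near background limit Gcsam, Efnb1 and Emid1 on the drug arrays, and Gcsam and the dimmer Emid1 probe in the lymphoma lines.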
